A study of Homo sapiens with 6 samples.

Results

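The genes described here are the 10 members of the MYC, MAX and MXD network given by name: MYC, MYCL, MYCN, MAX, MXD1, MXD3, MXD4, MNT, MGA and MLX. Each matched 1 row of the 58735 genes in the deposited tables by its symbol, and all 10 had enough counts to be tested. RNA sequencing libraries came from NCI-N87, an established human gastric cancer cell line. In 3 libraries the cells carried the plasmid PLVX-IRES-Puro-EGLN3, and in 3 control libraries the same plasmid without an insert. EGLN3 is a prolyl hydroxylase that marks hypoxia-inducible factors for degradation. By their labels the cells had the plasmid for 1 day and puromycin for 7 days, in both groups, except that EGLN3 replicate 3 is labelled with 5 days of plasmid. The control cells therefore also carry the vector and went through the same selection. The treatment protocol gives 1 day of plasmid for all libraries, so the 5 days on the label of EGLN3 replicate 3 are uncertain. The promoter that drives the insert, and whether the cells are a pool or a clone, are not known here. The values below address which MYC and antagonist genes this line uses at the RNA level and whether their RNA differed with EGLN3.

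Proteins of this network pair through a basic helix-loop-helix leucine zipper and bind the E-box, the DNA word CACGTG. MAX is the shared partner: MYC-MAX pairs activate growth and metabolism genes, while MXD-MAX, MNT-MAX and MGA-MAX pairs recruit repressor complexes to the same sites. MLX is a second hub that pairs with the glucose sensors MondoA (MLXIP) and ChREBP (MLXIPL) and with some of the MXD and MNT repressors. High MYC RNA is common in gastric cancer.

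Some network genes carry the network's own word beside their start. In the RefSeq promoter windows (GRCh38.p14, 250 bases before to 50 after the start), 9 of the 10 members had an entry, with 12 windows in all. The word reads the same on both strands, so 1 search covers both. It was present in 3 of the 12 windows, those of MLX, MNT and MXD4, against 7.26% of all 35116 windows. The 30 bases around each match are shown because they hold the E-box. The word is in capitals, with its first base 50, 193 and 238 bases before the start of MLX, MNT and MXD4. A match is a description of the sequence and no evidence of binding.
MLX, chr17:42567038-42567067, plus strand: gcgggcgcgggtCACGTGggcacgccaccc
MNT, chr17:2401236-2401265, minus strand: ccctgcccgggcCACGTGtgcgcgcgccgg
MXD4, chr4:2262330-2262359, minus strand: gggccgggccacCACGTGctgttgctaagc

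EGLN3, the introduced gene, checks the labels. Its counts were 10, 11 and 9 in the controls, in replicate order, against 7298, 27674 and 27494 in the EGLN3 libraries (log2 fold change 11.00; edgeR, adjusted p = 0.031), so each library matched its group. Library totals ran from 15157265 to 16767383 counts. All 9 epithelial markers, ERBB2 included, were at or above 1 FPKM in all 6 libraries. FPKM is the count per unit of gene length and of library depth, here also scaled between libraries. The 6 fibroblast markers summed to between 0.404 and 0.574 FPKM, with COL1A2 and LUM at 0 counts. The 4 endothelial markers summed to at most 0.120 FPKM. Of 6 leukocyte markers LYZ alone was at or above 1 FPKM throughout. Nothing in the labels ties replicates to separate cultures, and the spread behind each p-value may be technical. That spread was dominated by 1 axis: a principal component with 70% of the variance set control replicate 1 and EGLN3 replicates 2 and 3 apart from control replicates 2 and 3 and EGLN3 replicate 1.

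NCI-N87 used MYC almost to the exclusion of its paralogs at the RNA level. MYC had 92.5 ± 4.46 FPKM over the 6 libraries (SD, n = 6) and stood above 97.5% of tested genes. MYCN and MYCL, which act in place of MYC in neural and some lung tumours, had 1.15 ± 0.377 and 0.386 ± 0.0649 FPKM (SD, n = 6). Between 98.0% and 98.8% of the summed FPKM of the 3 genes belonged to MYC in each library. The hubs MLX and MAX followed at 15.2 ± 0.624 and 11.9 ± 1.89 FPKM (SD, n = 6). MLX was above MAX in all 6 libraries, although their ranges over the libraries overlapped. Per length, MYC RNA was 8.05 ± 1.08 times MAX RNA in controls and 7.71 ± 1.24 times with EGLN3 (SD, n = 3 each), and the groups overlapped. These are RNA levels, and they give no protein ratio.

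The repressor genes formed a lower and closely spaced tier. MGA, MXD1 and MNT were at 3.42 ± 1.32, 3.18 ± 0.767 and 3.17 ± 0.396 FPKM (SD, n = 6), and their order was not resolved: MGA was above MXD1 in 3 of 6 libraries and MXD1 above MNT in 4 of 6. MXD4 and MXD3 had 2.17 ± 0.319 and 1.88 ± 0.699 FPKM (SD, n = 6). MNT was above MXD4, MXD4 above MXD3, and MXD3 above MYCN in 5 of 6 libraries each, with overlapping ranges. MYCN was above MYCL in 6 of 6, and those ranges did not overlap. The order was the same when TPM was computed from the counts and lengths. In the control libraries alone MNT and MXD1 changed places.

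Among the 3 network genes outside the 10 members, MLXIP had 8.76 ± 1.27 FPKM, MXI1 had 5.61 ± 0.389 and MLXIPL had 2.33 ± 0.374 (SD, n = 6). MXI1 is the remaining MXD repressor, and its lowest library, at 5.16 FPKM, stood above the highest library of MXD1, at 4.11. MXI1 was therefore the most abundant MXD gene of the line per length. Lengths are the union of annotated exons, which overstates the length, and understates FPKM, of a gene that is read mainly from a short transcript.

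**Figure D1:**
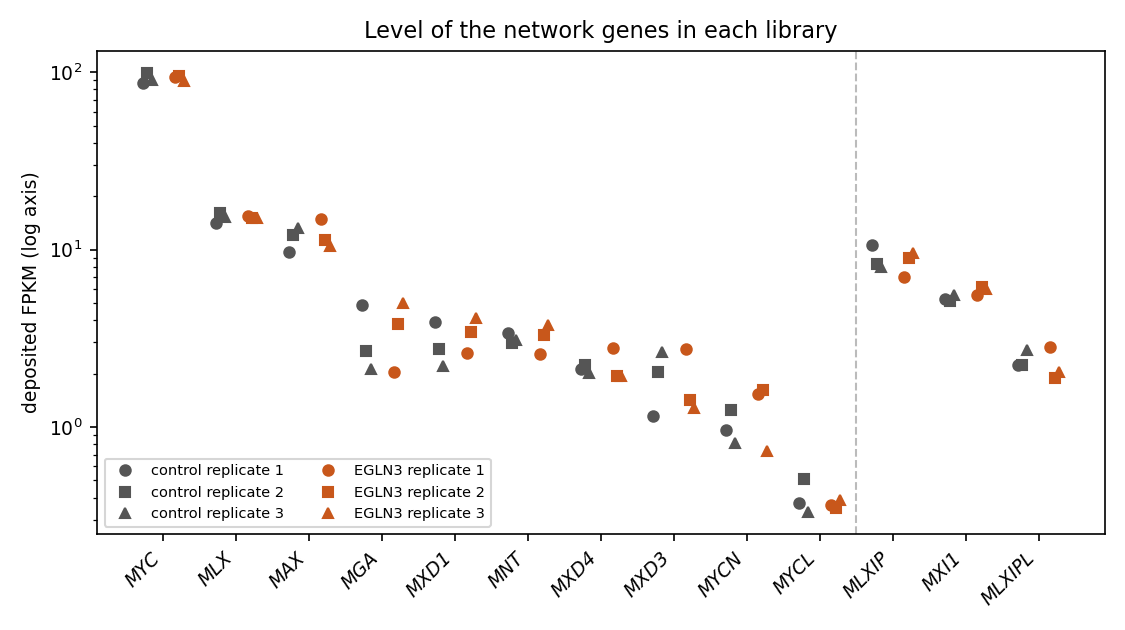
Deposited FPKM (log axis) of the 10 members, in order of their mean, and of 3 further network genes right of the dashed line, with 1 point per library, grey for the empty plasmid and orange for EGLN3. MYC lies near 92.5 in all libraries, MLX and MAX near 15.2 and 11.9, the repressors among the members between 1.15 and 4.98, and MYCL near 0.386.

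No member changed with EGLN3 past the threshold. In edgeR's quasi-likelihood test 0 of the 10 members had an adjusted p under 0.05 and 0 had an unadjusted p under 0.05. Over all tested genes 174 had an unadjusted p under 0.05 (edgeR). The test called 0.00636% of the 15726 tested genes, which is EGLN3 alone, so a count of 0 among 10 is what the background gives. DESeq2 and limma-voom also called 0 members, with 0 at an unadjusted p under 0.05. Groups did not overlap for 0 of the 10 members, against 6.26% of all tested genes. The members' log2 fold changes ran from -0.15 to 0.36 with a median of 0.04, beside a median of 0.01 over all tested genes.

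A second fit took out the axis that separates the libraries, with 1 surrogate variable as a term, and removed each library's trends on GC content and gene length. It is called the corrected fit below. It treats the estimated terms as known, so its SEs and p-values may be too small. It called 0.986% of 15719 genes and 0 of the 10 members. At an unadjusted p under 0.05 it had 0 members, beside 2061 of the 15719 genes (edgeR). With 1 library left out and the corrected fit made anew, 0 members were called. An unadjusted p under 0.05 in at least 1 of the 6 fits was seen for 4 members (edgeR). The share of all genes at that level in these 6 fits was not counted, so the 4 are not read as a trait of the members. The smallest were 0.0032 for MYCN without EGLN3 replicate 3 (adjusted p = 0.28), 0.016 for MYC without control replicate 2 (adjusted p = 0.27), 0.017 for MNT without control replicate 3 (adjusted p = 0.23) and 0.043 for MXD1 without control replicate 1 (adjusted p = 0.36), each by edgeR. The corrected fit gave 9 positive and 1 negative log2 fold change, and the uncorrected fit 7 and 3. In both fits all 10 intervals included 0.

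**Figure D2:**
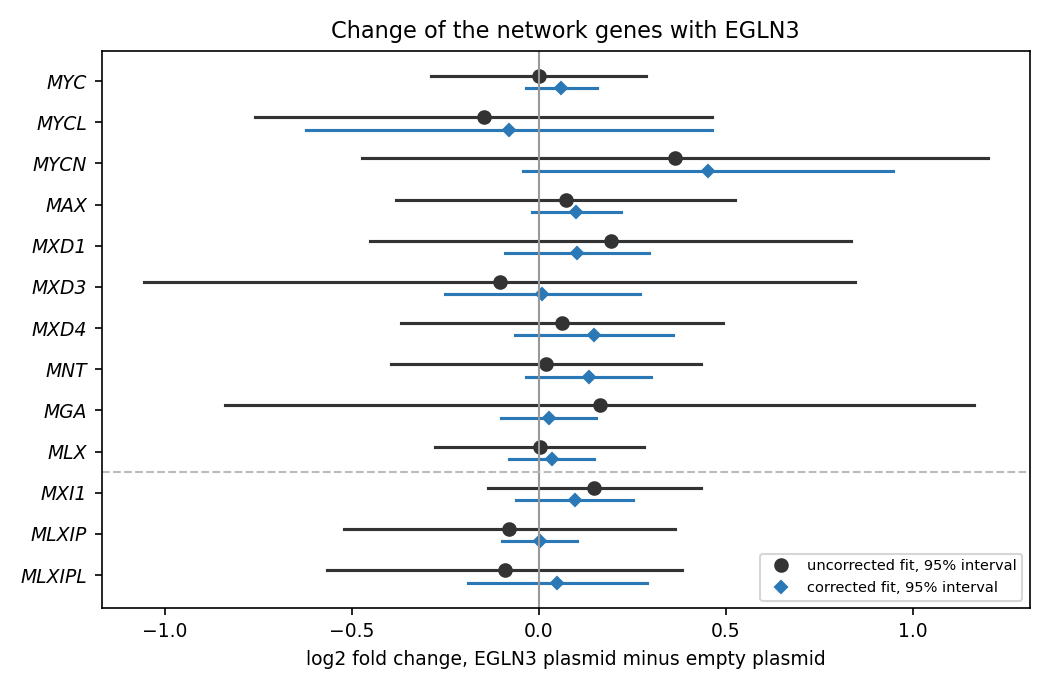
Log2 fold change between EGLN3 and empty plasmid for the 10 members and, under the dashed line, 3 further network genes, with 95% intervals from the uncorrected fit (grey circles) and the corrected fit (blue diamonds, intervals that may be too narrow). All intervals cross 0, and those of MYC and MLX are the narrowest of the uncorrected fit among the members.

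MYC itself was among the steadiest genes of the data set. The gene (ENSG00000136997) lies on the plus strand of chromosome 8 from 127735434 to 127741434 (hg38). Its level in CPM (a count relative to its library total, after TMM scaling between libraries) was 266, 301 and 275 in the controls and 282, 288 and 271 in the EGLN3 libraries, each in replicate order, as below. The control libraries held both the lowest and the highest value, so the EGLN3 group lay inside their range. The log2 fold change was 0.00 (SE 0.12, 95% interval -0.29 to 0.29; edgeR, adjusted p = 1.00). That interval leaves room for a level between 0.819 and 1.22 times the control. The corrected fit gave 0.06 (SE 0.05, 95% interval -0.04 to 0.16; edgeR, adjusted p = 0.65). The SD of its log2 CPM over the 6 libraries was 0.0642, the 2.19th percentile of tested genes, from at least 4270 counts in each library.

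The paralogs were measured from few counts. MYCN (ENSG00000134323, chromosome 2, 15940564 to 15947007, plus strand) held 44, 51 and 34 counts in controls and 61, 72 and 31 with EGLN3. EGLN3 replicates 1 and 2 were above all controls and EGLN3 replicate 3, the library labelled with the longer plasmid time, was below all of them. Whether plasmid time bears on that value was not tested. Exact 95% Poisson intervals, which cover counting error only, were 56.3 to 90.7 counts for the highest library and 21.1 to 44.0 for the lowest. They do not overlap, so the spread within the EGLN3 group exceeds counting error. The log2 fold change was 0.36 (SE 0.35, 95% interval -0.47 to 1.2; edgeR, adjusted p = 1.00), and 0.45 (SE 0.24; edgeR, adjusted p = 0.45) in the corrected fit. MYCN was the member with the largest fitted difference in both fits, and its value moved with single libraries. Without EGLN3 replicate 2 it was 0.165, and without EGLN3 replicate 3 it was 0.644, or 0.161 and 0.755 in the corrected fit. It shares 98 exonic bases with the antisense gene MYCNOS, which held at most 7 counts per library.

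MYCL (ENSG00000116990, chromosome 1, 39895426 to 39902256, minus strand) held 33, 41 and 27 counts in controls and 28, 30 and 32 with EGLN3. All 6 Poisson intervals overlap, from 17.8 to 55.6 counts. Its log2 fold change was -0.15 (SE 0.26, 95% interval -0.76 to 0.46; edgeR, adjusted p = 1.00). That interval leaves room for a MYCL level between 0.592 and 1.38 times the control, and it is not a detection limit.

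The hubs differed in how far they varied. MAX (ENSG00000125952, chromosome 14, 65006174 to 65102695, minus strand) had 43.4, 54.0 and 58.9 CPM in controls and 66.2, 50.7 and 47.3 CPM with EGLN3. EGLN3 replicate 1 was highest and control replicate 1 lowest, so the groups overlapped. The log2 fold change was 0.07 (SE 0.19, 95% interval -0.38 to 0.52; edgeR, adjusted p = 1.00), and 0.10 (SE 0.06; edgeR, adjusted p = 0.49) in the corrected fit. MLX (ENSG00000108788, chromosome 17, 42567068 to 42573239, plus strand) had 61.4, 69.1 and 65.7 CPM in controls and 66.1, 64.9 and 65.5 CPM with EGLN3. The 3 EGLN3 values lay within 2 CPM of each other and inside the control range. The log2 fold change of MLX was 0.00 (SE 0.12, 95% interval -0.28 to 0.28; edgeR, adjusted p = 1.00). Its SD of log2 CPM, 0.0551, was at the 1.35th percentile of tested genes. MLX shares 18.1% of its exonic bases with PSMC3IP on the opposite strand, a recombination cofactor. PSMC3IP had a log2 fold change of -0.44 (SE 0.20; edgeR, adjusted p = 1.00) and fell in the corrected fit by 0.45 (SE 0.11; edgeR, adjusted p = 0.033). Whether the counting used strand is not known here, so reads from shared exons cannot be told apart.

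MGA and MXD3 were the members that varied most, in opposite directions and along the library axis rather than with the plasmid. MGA (ENSG00000174197, chromosome 15, 41621224 to 41773081, plus strand) is a large repressor that joins MAX to a Polycomb complex. It had 87.1, 47.8 and 37.8 CPM in controls and 36.3, 67.6 and 89.4 CPM with EGLN3. Control replicate 1 and EGLN3 replicates 2 and 3 were high, and the other 3 libraries low, with mean levels of 81.4 and 40.7 CPM. The plasmid contrast was 0.16 (SE 0.42, 95% interval -0.84 to 1.16; edgeR, adjusted p = 1.00). With the axis in the model the corrected fit gave 0.03 (SE 0.06, 95% interval -0.10 to 0.15; edgeR, adjusted p = 0.91).

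MXD3 (ENSG00000213347, chromosome 5, 177301461 to 177312757, minus strand), a repressor otherwise found in cycling cells, had 6.05, 10.6 and 13.8 CPM in controls and 14.2, 7.35 and 6.74 CPM with EGLN3. The libraries that were high for MGA were low for MXD3, at a mean of 6.72 against 12.8 CPM. Its log2 fold change was -0.10 (SE 0.40, 95% interval -1.05 to 0.85; edgeR, adjusted p = 1.00), and 0.01 (SE 0.13; edgeR, adjusted p = 0.99) in the corrected fit. MXD3 shares 40.4% of its exonic bases with PRELID1 and RAB24, so its level is uncertain. PRELID1, a mitochondrial lipid carrier at 75.5 FPKM, ranged from 97.1 to 184 CPM and was also lowest in the 3 libraries where MXD3 was low. PRELID1 had a log2 fold change of -0.40 (SE 0.23; edgeR, adjusted p = 1.00) and fell in the corrected fit by 0.31 (SE 0.05; edgeR, adjusted p = 0.0025).

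MXD1, MNT, MAX and MLX also had levels that did not overlap between the sides of the axis, with smaller differences, of 1.53, 1.21, 1.26 and 1.05-fold. The axis was computed from all tested genes, these included. The share of all tested genes without overlap between its sides was not counted, so the separation is not read as a trait of the network. MXD1 (ENSG00000059728, chromosome 2, 69897688 to 69942945, plus strand), a repressor that is raised as cells differentiate, had 25.3, 17.7 and 14.1 CPM in controls and 16.6, 22.1 and 26.5 CPM with EGLN3. Its high libraries were those of MGA, at a mean of 24.7 against 16.1 CPM. MXD1 had a log2 fold change of 0.19 (SE 0.27, 95% interval -0.45 to 0.83; edgeR, adjusted p = 1.00), and 0.10 (SE 0.09) in the corrected fit. It ran from 0.016 without control replicate 3 to 0.451 without control replicate 1, and in the corrected fit from -0.076 without EGLN3 replicate 1 to 0.23 without control replicate 1. MNT (ENSG00000070444, chromosome 17, 2384060 to 2401118, minus strand), a broadly expressed MYC antagonist, had 29.9, 26.2 and 27.4 CPM in controls and 22.5, 28.9 and 33.2 CPM with EGLN3. The EGLN3 replicates of MNT spanned the control range on both sides. Its log2 fold change was 0.02 (SE 0.17, 95% interval -0.40 to 0.43; edgeR, adjusted p = 1.00).

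MXD4 (ENSG00000123933, chromosome 4, 2247432 to 2262294, minus strand), a repressor of quiescent and differentiated cells, had 15.3, 15.9 and 14.3 CPM in controls and 19.7, 13.9 and 13.9 CPM with EGLN3. EGLN3 replicate 1 was the highest of the 6 libraries and the other EGLN3 libraries were the lowest. Its log2 fold change was 0.06 (SE 0.18, 95% interval -0.37 to 0.49; edgeR, adjusted p = 1.00). Without EGLN3 replicate 1 it was -0.11, so the sign of the MXD4 value rests on that library.

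**Figure D3:**
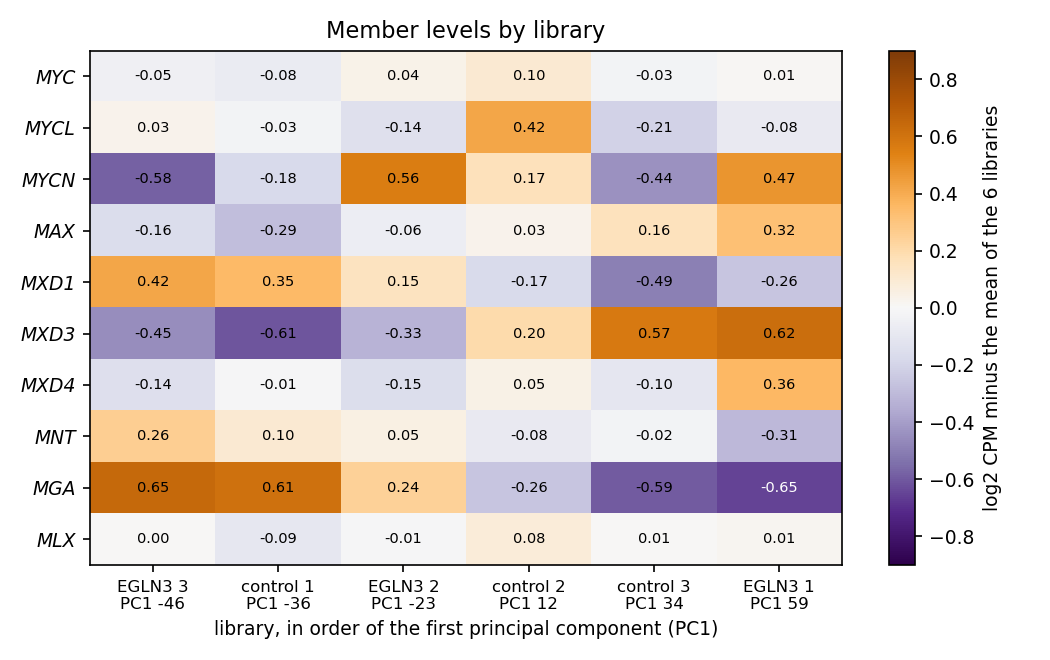
Log2 CPM of each member minus its mean over the 6 libraries, with libraries in order of their score on the first principal component of all tested genes (PC1). MGA and MXD1 pass from high to low and MXD3 and MAX from low to high along that order, while MYC and MLX stay within 0.101 of their mean, and each side of the axis holds control and EGLN3 libraries.

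Length and GC content differed among the members that split. MGA is 17651 bases long with 42% GC in its longest transcript, and MXD1 is 6351 bases long with 42.7% GC. MXD3, with the opposite pattern, has 61.3% GC over 5154 bases. MNT, with 61.4% GC over 8728 bases, had higher levels on the side of MGA. So had the partner gene MLXIP, with 57.9% GC over 13905 bases and no overlap between the sides. MXD4, with 57.6% GC over 7058 bases, and MXI1, with 43.8% GC over 4607 bases, overlapped between the sides. The log2 differences, the side where MXD3 was high minus the other, were 0.199 for MXD4, -0.104 for MXI1 and -0.333 for MLXIP. The part of length and GC content in the split was not tested for single genes. With the surrogate variable alone in the model the SE of MGA, MXD3 and MXD1 was 0.071, 0.126 and 0.096, against 0.42, 0.40 and 0.27 without it, and the trends added to it left them at 0.06, 0.13 and 0.09. The split in MXD3 exceeded counting error: control replicate 1, at 104 counts, had an exact 95% Poisson interval of 85.0 to 126, and control replicate 3, at 219 counts, one of 191 to 250.

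The partner genes outside the members gave the same picture. MXI1 was the 1 network gene whose groups did not overlap, at 24.7, 24.0 and 25.7 CPM in controls and 25.8, 28.5 and 28.2 CPM with EGLN3. Over all tested genes 6.26% did not overlap, so 1 such gene is about what the background gives. The gap between the groups was small beside their spread, and the log2 fold change was 0.15 (SE 0.12, 95% interval -0.14 to 0.43; edgeR, adjusted p = 1.00). MLXIP, or MondoA, had 127 ± 21.0 CPM in controls and 120 ± 19.3 with EGLN3 (SD, n = 3 each), a log2 fold change of -0.08 (SE 0.18). MLXIPL, or ChREBP, had 11.7 ± 1.34 and 11.0 ± 2.41 CPM (SD, n = 3 each), a log2 fold change of -0.09 (SE 0.20). None of these 3 genes was called in either fit (edgeR, adjusted p = 1.00 for each in the uncorrected fit).

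The balance of activators and repressors was also similar in the groups. MXD1, MXD3, MXD4, MXI1, MNT and MGA together amounted to 20.1% ± 2.98 of the summed MYC, MYCL and MYCN FPKM in controls and 21.4% ± 2.74 with EGLN3 (SD, n = 3 each). The lowest share, 17.7%, was in control replicate 2, and the highest, 24.5%, in EGLN3 replicate 3. The groups overlapped.

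Genes that work with MYC were tested as lists. Of 16 coactivators, 0 were called, 5 were higher and 11 lower, with a median log2 fold change of -0.06 beside 0.01 for all tested genes (edgeR; 0 at an unadjusted p under 0.05). KAT5, a histone acetyltransferase, was at -0.27 (SE 0.16), the elongation kinase CDK9 at -0.25 (SE 0.20), and the ATPase RUVBL2 at -0.25 (SE 0.26). RUVBL2 and ACTL6A were the most abundant of the list at 56.7 and 38.4 FPKM. Of 23 genes that set MYC protein turnover, 0 were called, 13 were higher and 10 lower, with a median of 0.02 (edgeR; 0 at an unadjusted p under 0.05). STUB1, a ubiquitin ligase, was at -0.28 (SE 0.25), the kinase PLK1 at -0.18 (SE 0.16) and PPP2R5A, a phosphatase subunit that promotes MYC loss, at 0.12 (SE 0.13). SET, an inhibitor of that phosphatase, and its scaffold PPP2R1A were the most abundant at 127 and 40.4 FPKM. Each of these genes had an edgeR adjusted p of 1.00. With the surrogate variable alone, 2 coactivators, CDK9 and RUVBL2, were called as lower. The corrected fit called 0 genes of both lists.

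Genes that work with the repressors had no calls in the uncorrected fit, the corrected fit or the fit with the surrogate variable alone. Of 12 genes of the SIN3 and HDAC complexes, which MXD and MNT bring to DNA, 0 were called, 6 were higher and 6 lower, with a median of 0.00 (edgeR; 0 at an unadjusted p under 0.05). SAP30 was at -0.35 (SE 0.22), ING1 at -0.25 (SE 0.17) and the deacetylase HDAC1 at -0.11 (SE 0.14). HDAC1 and SAP18 led the list in level at 47.5 and 41.6 FPKM. Of 11 genes of the MGA complex PRC1.6, 0 were called, 7 were higher and 4 lower, with a median of 0.03 (edgeR; 0 at an unadjusted p under 0.05). RYBP was at 0.30 (SE 0.19), the ubiquitin ligase RNF2 at 0.22 (SE 0.15) and PCGF6, which defines this complex among Polycomb complexes, at 0.16 (SE 0.13). PCGF6 had 13.9 ± 0.411 CPM in controls and 15.5 ± 0.981 with EGLN3 (SD, n = 3 each), with no overlap. It was the 1 gene of these 11 without overlap, beside 6.26% of all tested genes. TFDP1 and CBX3 were the most abundant at 64.5 and 48.3 FPKM.

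Targets that MYC activates were mostly near the median of all genes. Of 49 in the list 48 were tested, CCND2 being the exception. In the uncorrected fit 0 were called, 1 had an unadjusted p under 0.05, 19 were higher and 29 lower, with a median log2 fold change of -0.04 (edgeR). Groups did not overlap for 3 of the 48, CDK4, RCC1 and MYBBP1A, beside 6.26% of all tested genes. That is about what the background gives. The corrected fit called 2 as lower and 0 as higher, CDK4 and SHMT2, with a median of -0.02, beside 0.986% of all genes called in that fit. With the surrogate variable alone, without the trends, 9 of the 48 were called as lower and 0 as higher (edgeR), which is 18.8% beside 4.76% of all tested genes. The count for this list thus differs between the fits, as does the count over all genes. The 9 include CDK4, SHMT2 and RCC1. NPM1 and HSPD1, a nucleolar and a mitochondrial chaperone with the highest levels of the list at 339 and 194 FPKM, were at 0.07 (SE 0.17) and 0.01 (SE 0.13). Both have processed pseudogenes that can take part of their reads.

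CDK4, the cyclin D kinase, was the gene with the unadjusted p under 0.05. It had 107, 113 and 101 CPM in controls and 89.1, 86.4 and 86.2 CPM with EGLN3, so all 3 EGLN3 libraries were below all controls. Its difference was -0.29 on the log2 scale (SE 0.12; edgeR, adjusted p = 1.00, unadjusted p = 0.040), and CDK4 fell in the corrected fit by 0.24 (SE 0.05; edgeR, adjusted p = 0.017). That call was lost in 4 of 6 corrected fits with 1 library left out (edgeR, adjusted p = 0.051 without control replicate 1, and 0.083, 0.12 and 0.17 without EGLN3 replicates 1, 2 and 3), with log2 fold changes from -0.29 to -0.21 over the 6. CDK4 (ENSG00000135446, chromosome 12, 57747727 to 57756013, minus strand) shares 43.2% of its exonic bases with TSPAN31 on the other strand. TSPAN31 was at -0.08 (SE 0.13).

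SHMT2, the mitochondrial serine hydroxymethyltransferase of folate metabolism, had 172, 205 and 212 CPM in controls and 191, 145 and 143 CPM with EGLN3. EGLN3 replicate 1 lay within the control range. Its log2 fold change was -0.30 (SE 0.17; edgeR, adjusted p = 1.00), and it fell in the corrected fit by 0.20 (SE 0.05; edgeR, adjusted p = 0.026). Leaving out 1 library ended the call in 4 of 6 corrected fits (edgeR, adjusted p = 0.069 without control replicate 3, and 0.30, 0.20 and 0.057 without EGLN3 replicates 1, 2 and 3), while the log2 fold changes of those 4 fits, -0.209, -0.202, -0.174 and -0.248, stayed near that of the fit with all libraries. RCC1, the exchange factor of the RAN GTPase, had 162 ± 2.73 CPM in controls and 140 ± 7.70 with EGLN3 (SD, n = 3 each), with no overlap, as for 6.26% of all tested genes. RCC1 had a log2 fold change of -0.21 (SE 0.11; edgeR, adjusted p = 1.00), and in the corrected fit -0.18 (SE 0.05; edgeR, adjusted p = 0.064), which did not pass.

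Targets that MYC represses had no calls. Of 13, 0 were called in either fit, 4 were higher and 9 lower, with a median of -0.06 in the uncorrected fit (edgeR; 0 at an unadjusted p under 0.05) and 0.04 in the corrected fit. Without 1 library in turn the uncorrected median ran from -0.189 to 0.025. NDRG2 was at -0.27 (SE 0.16), and the CDK inhibitors CDKN2C and CDKN2B were at -0.20 (SE 0.20) and 0.12 (SE 0.15). The most abundant were GADD45A at 27.7 FPKM and CDKN1B at 15.8 FPKM, with log2 fold changes of -0.12 (SE 0.23) and -0.07 (SE 0.13).

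Targets of the MLX pairs had 1 call in the corrected fit, SCD, which called 0.986% of all genes, and the same 1 call with the surrogate variable alone. Of 10 in the list 9 were tested, PKLR being the exception, with 0 calls in the uncorrected fit, 6 higher and 3 lower and a median of 0.06 (edgeR; 0 at an unadjusted p under 0.05). TXNIP, the glucose-responsive target most used to read MondoA, had 206 ± 5.75 CPM in controls and 232 ± 21.98 with EGLN3 (SD, n = 3 each), a log2 fold change of 0.17 (SE 0.13; edgeR, adjusted p = 1.00). SCD, a fatty acid desaturase that also answers to sterol-regulated factors, had 764, 599 and 545 CPM in controls and 585, 838 and 916 CPM with EGLN3. EGLN3 replicates 2 and 3 were above all controls and EGLN3 replicate 1 was not. The log2 fold change of SCD was 0.29 (SE 0.22; edgeR, adjusted p = 1.00), and SCD rose in the corrected fit by 0.25 (SE 0.04; edgeR, adjusted p = 0.0019). It lost the call without EGLN3 replicate 1 (0.22, SE 0.06; edgeR, adjusted p = 0.18) and kept it in the other 5 corrected fits. FASN, at 116 FPKM, was at -0.04 (SE 0.19), and ACACB was at -0.40 (SE 0.23), with 4.77 to 5.88 CPM in controls and 2.97 to 4.75 with EGLN3, which did not overlap. ACACB was the 1 gene of the 9 tested without overlap, beside 6.26% of all tested genes.

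**Figure D4:**
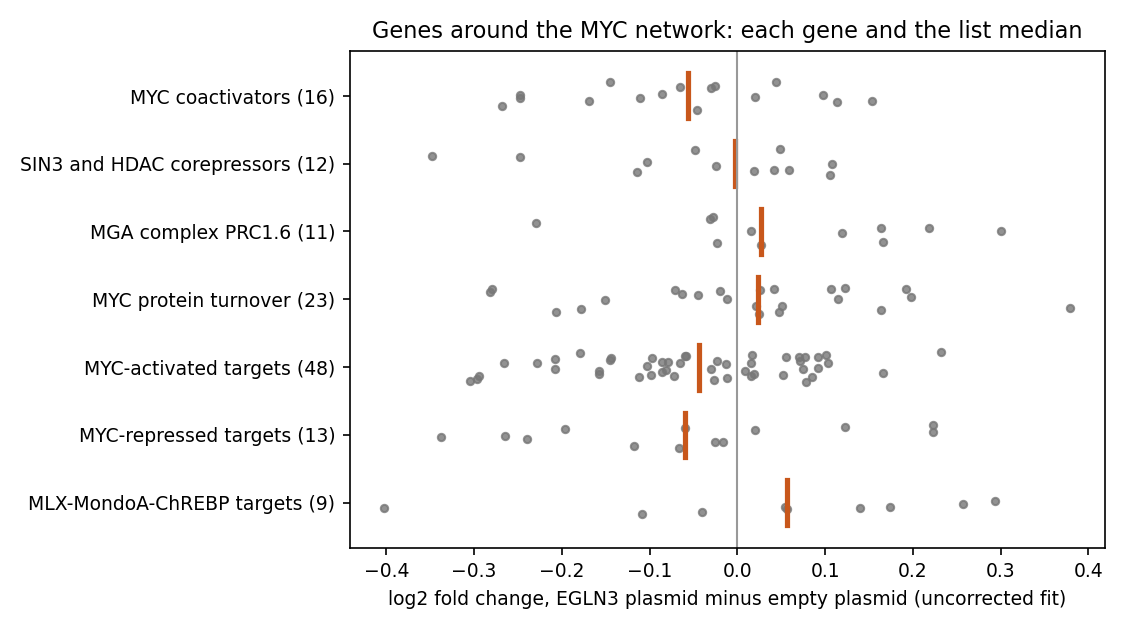
Log2 fold change of each tested gene (grey points, spread vertically for legibility) and the median (orange bar) of 7 lists around the network, from the uncorrected fit, with the number tested in brackets. Medians lie between -0.06 and 0.057, and single genes between -0.402 and 0.379.

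The genes whose pattern over the 6 libraries was most like that of MYC were FTH1, FECH, KAT14, PUDP and ISL1, with Pearson correlations of log2 CPM of 0.97, 0.97, 0.97, 0.96 and 0.96. They were the highest of 12265 protein-coding genes compared over 6 libraries that share the axis described above, and the SD of MYC over these libraries was 0.0642 on the log2 scale, so the likeness concerns small differences.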

How the data were processed

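The authors deposited unscaled read counts per gene. Their deposited FPKM are those counts over gene length and over a factor for each library that also scales between libraries, as tested on the values. Per the submitters' processing notes, hg38, DESeq2 1.20.0, featureCounts 1.5.0-p3 and HISAT2 2.0.5 were used, with no role given for each. The annotation and any use of strand are not known here. Starts and ends of all 58735 genes equal those of GENCODE release 29, as do the members' exon lengths.

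Counts were analysed in R 4.3.3 with edgeR 4.0.16: filterByExpr, TMM scaling, the robust quasi-likelihood test, no covariate, and Benjamini-Hochberg adjustment over all tested genes, with an adjusted p under 0.05 as a call. The SE is the size of the log2 fold change divided by the square root of F. CPM carry the TMM scaling. FPKM served to compare genes. The corrected fit added 1 surrogate variable (svaseq, sva 3.50.0) and an offset for each library's spline trends (5 degrees of freedom) on GC content and length. It has 3 residual degrees of freedom against 4. Alternatives were DESeq2 1.42.0, limma 3.58.1, other scalings and filters, FPKM, the replicate block and leaving out each library. The procedure was tested on simulated data.

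Members, lists and alternatives were chosen with earlier results of these data known. Named were EGLN3, the members, their 3 partners, up to 3 genes of smallest p and the 2 most abundant of each list, the 5 genes most like MYC, and genes within 5 kb of a member, of which the text describes those with exonic bases shared with it where these bear on a value. TSPAN31 was added after its values were seen. Same-numbered libraries did not deviate together (correlations of -0.793, -0.176 and -0.674), so the numbers were not used to pair them. No 2 replicates agreed within sampling noise (chi-square per degree of freedom from 8.98 to 118).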

Additional observations from a re-analysis of the deposited data

How the results depend on the processing

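No alternative called a member: the count of members called was 0 in all 18 alternative fits and in the 6 corrected fits without 1 library. The number of genes called among all tested was 1, EGLN3. It was 0 with limma-voom, with the replicate block and with limma on log2(FPKM + 1) with or without the minimum of 0.5, 749 with 1 surrogate variable and 155 with GC and length trends added. It ran from 0 to 1 over the fits without 1 library, with 1 only without EGLN3 replicate 1. The corrected fit's 155 became 188, 181 and 185 without control replicates 1, 2 and 3, and 52, 67 and 52 without EGLN3 replicates 1, 2 and 3, an alternative chosen after seeing the data. The cause of these differences was not tested.

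Signs of values near 0 changed. MYC was at 0.008 (DESeq2 and RLE), 0.001 (limma-voom and the replicate block), 0.002 (upper quartile), 0.003 (1 CPM in 3 libraries), 0.005 (all 3 FPKM fits), 0.004 (1 surrogate variable) and 0.06 (with trends). MXD3 turned to 0.009 with the surrogate variable and trends, MNT to -0.017 with 1 surrogate variable, and MLX to -0.01 without the filter. Without 1 library in turn, MYC ran from -0.039 to 0.068, MYCL from -0.274 to 0.067, MAX from -0.074 to 0.169, MXD3 from -0.508 to 0.178, MXD4 from -0.113 to 0.146, MNT from -0.117 to 0.17, MGA from -0.148 to 0.589 and MLX from -0.043 to 0.059. MYCN, from 0.165 to 0.644, and MXD1, from 0.016 to 0.451, kept a positive sign in all 18. The block moved no call of a member. MYCL, at 27 to 41 counts, and MYCN, at 31 to 72, are the members with the fewest counts. In the uncorrected fit MGA and MXD3 had larger SEs, of 0.42 and 0.40, than MYCL and MYCN, of 0.26 and 0.35.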

Other observations

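The MXD genes, summed after their values had been seen (MXD1, MXD3, MXD4 and MXI1), had 12.5, 12.2 and 12.4 FPKM in control replicates 1 to 3 and 13.7, 12.9 and 13.4 FPKM in EGLN3 replicates 1 to 3. The groups did not overlap on that scale, nor as summed CPM, at 71.3, 68.2 and 67.9 against 76.3, 71.8 and 75.4. As TPM they overlapped, at 45.5, 38.6 and 36.3 against 35.8, 45.9 and 50.2. The members of the sum moved against each other, since MXD3 was low in the libraries where MXD1 was high.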
